A study of Canis lupus familiaris with 15 samples.

Results

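Cytosolic ribosomal protein genes encode the protein subunits of the ribosome that reads nuclear mRNA in the cytoplasm. They were taken from the deposited tables of canine osteosarcoma cells by symbol alone (names beginning with RPL, RPLP or RPS plus a number, RPSA and FAU, without the RPS6K kinases). The symbols found 41 genes of the 7698 that any of the 3 tables lists. The table of extravasated against parental D17 cells held 31 of them among 4412 genes, the table of extravasated against parental HMPOS cells held 2 among 1189, and the table of parental HMPOS against parental POS cells held 20 among 5746. The rule uses no measured value, but only genes that passed the authors' own test are listed. It was chosen with earlier results of these data known. All 41 symbols were found in the RefSeq gene list of the dog, and by position the members lay on 25 chromosomes.

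Canine osteosarcoma is a bone tumor of the dog, and D17, HMPOS and POS are lines grown from such tumors, HMPOS being a highly metastasizing derivative of POS. The 15 RNA-Seq libraries form 5 groups of 3: D17 extravasation-positive, D17 parental, HMPOS extravasation-positive, HMPOS parental and POS parental. Extravasation-positive sub-lines were expanded in culture from tumor cells that had been put into the blood of zebrafish embryos of the line Tg(fli1a:EGFP), whose vessels fluoresce, had left those vessels as clusters and were recovered with the surrounding tissue. Parental cells had not been in a fish, so passage through the zebrafish, recovery, regrowth and extravasation cannot be told apart, and POS had no extravasated group.

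Each table gave 1 pooled value per gene and group in FPKM (fragments scaled to transcript length and to the size of the library), so no value below has a spread over libraries, an error or a test of its own, and the depth is unknown. The tables list genes that passed the authors' own test, at a q-value below 0.05, and leave out the rest. Every member listed therefore had to differ between its groups, the counts below are descriptions, and a ribosomal protein gene missing from a table cannot be read as unchanged. Directions rest on the group names in the tables, where "norm" was read as parental and "meta" as extravasated. The POS group, which has parental libraries only, is also named "norm", so the names go with this reading. The article's text on the extravasation comparisons runs in the opposite sense. It counts more downregulated than upregulated genes in both lines, where this reading gives more higher than lower genes. No value per library was available to check the names against the samples. If the names were exchanged, each direction between extravasated and parental cells given below would be exchanged too. The ratios of HMPOS over POS would keep their direction. Their HMPOS group, also named "norm", would then be the extravasated and not the parental one. Markers of cell type can be read only where they differ between groups, so they cannot show that no other cell type was present. Of 10 osteoblast and mesenchymal markers, COL1A1, COL1A2, SPARC and SPP1 were among the D17 rows, at 3.71 to 1359.7 FPKM and higher in extravasated cells. Of 10 markers of other cell types, EPCAM and CDH1 were listed. These reached at most 1.72 FPKM and were also higher in extravasated cells. In the HMPOS table COL1A1, SPARC, BGLAP and ALPL were listed at 27.3 to 2897 FPKM and higher in extravasated cells, IBSP was lower there at 0.427 against 2.05 FPKM, and CDH1 reached 3.04 FPKM. Between HMPOS and POS, 5 of 6 listed osteoblast and mesenchymal markers were lower in HMPOS, BGLAP (27.3 against 676 FPKM), SPP1 (1.73 against 13.8 FPKM), COL1A1 and SPARC past a fold of 2 and VIM short of it, while SP7 was higher and CDH1 and KDR were at most 4.30 FPKM. In that comparison 52.3% of all listed genes were lower in HMPOS. The part of these marker differences in the results below was not tested.

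The cytosolic ribosome has a small subunit, which binds mRNA and decodes it, and a large subunit, which joins amino acids and guides the growing chain through its exit tunnel. Each subunit holds a set of proteins, most of which are needed in equal numbers with the ribosomal RNAs. Vertebrate ribosomal protein mRNAs carry a terminal oligopyrimidine (TOP) tract at their start, through which the mTOR kinase controls their translation, and they are among the most abundant mRNAs of growing cells. Many of the genes have processed pseudogenes of near-identical sequence, so the division of reads between copies, and with it each level below, is uncertain.

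Of 78 symbols of core subunits, 46 of the large and 32 of the small subunit, 40 were in at least 1 table, 20 of each subunit. The remaining member was RPL22L1, a paralog of RPL22, and 7 other paralog symbols were in no table. The 38 core symbols in no table included RPL5, RPL6, RPL9, RPL10, RPL13A, RPL14, RPL19, RPL22, RPL23, RPL23A, RPL24, RPL27, RPL27A, RPL29, RPL30, RPL34, RPL36, RPL36A, RPL37, RPL37A, RPL38, RPL39, RPL41, RPLP1, RPLP2, RPS4X, RPS9, RPS13, RPS14, RPS18, RPS19, RPS20, RPS23, RPS25, RPS27A, RPS28 and RPS29. By table, 20 members were listed for D17 alone, 9 for HMPOS against POS alone and RPL35A for HMPOS extravasation alone, while 11 were listed both for D17 and for HMPOS against POS. RPL13, a large subunit protein, was the 1 member in all 3 tables. The same overlaps were not counted over all listed genes, so these counts have no background and cannot be read as a trait of the members.

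The D17 comparison asks how cells that left the vessels of the fish differ from the line they came from. Of the 31 listed members, 29 were higher in extravasated than in parental D17 cells and 2 were lower, where 54.2% of all listed genes were higher and 45.8% were lower. On the log2 scale, the median of extravasated over parental values was 0.41 for the members and 0.39 for the whole table, and relative to that table median 18 members lay above and 13 below. None of the 31 passed a fold of 2, in a table where 26.8% of genes did. The members thus shared a direction at a small size: the SD of their log2 ratios across genes was 0.24, against 1.05 across all listed genes.

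**Figure D1:**
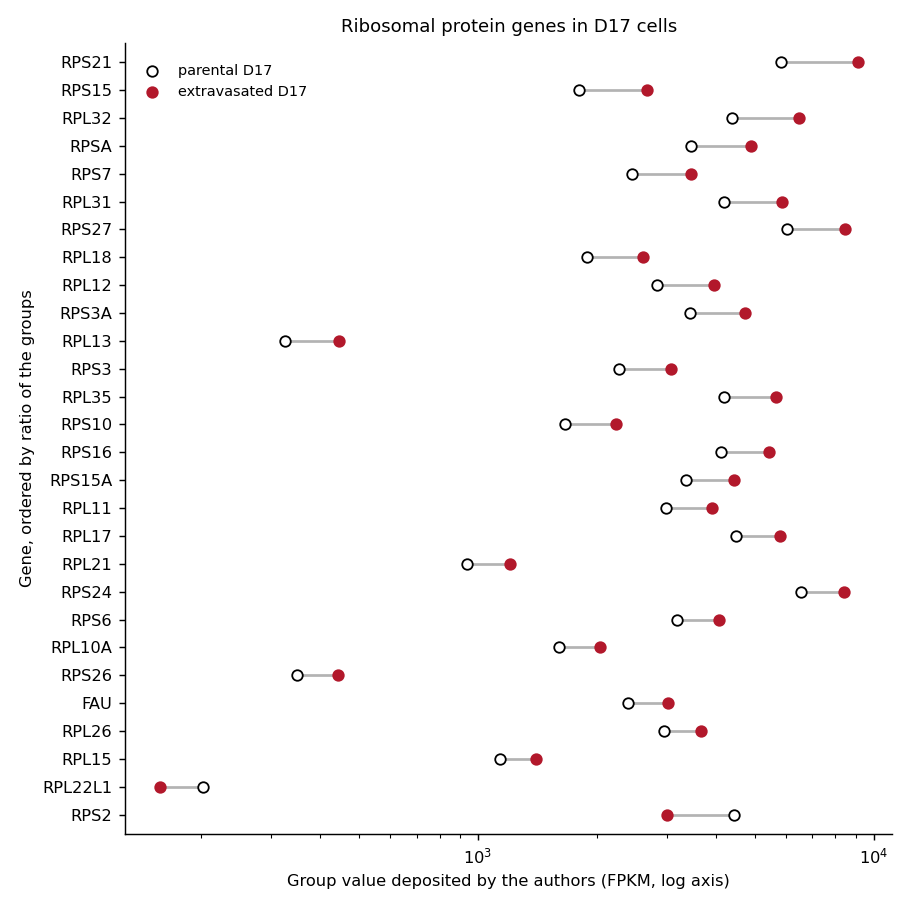
Pooled FPKM (log axis) of 28 of the 31 listed ribosomal protein genes in D17 parental and D17 extravasated cells, 1 point per gene and group, ordered by the ratio of the groups. In 26 of the 28 genes drawn the extravasated value lies to the right of the parental value, and RPS2 and RPL22L1 are the exceptions.

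The highest ratio belonged to RPS21, a small subunit protein encoded in a listed span on chromosome 24 from 45794448 to 46537627 (CanFam3.1, as are all positions here). Its pooled value was 9097 FPKM in extravasated against 5841 FPKM in parental D17 cells, and its log2 ratio was 0.64. RPS21 was the only member of the 31 past a fold of 1.5, at 1.56, where 61.8% of the table passed, and it ranked 2 among all genes of the table by its higher value, behind the glycolytic enzyme GAPDH. That span of 743179 bases is the longest among the members, and 6 members in this table had spans over 20 kb, which can take in neighbouring sequence.

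Next came RPS15, a small subunit protein near the site where tRNAs are held, at 20:57406575 to 57407014, with 2673 FPKM in extravasated against 1805 FPKM in parental cells (log2 ratio 0.57). RPL32, a large subunit protein at 20:5727168 to 5756140, had 6479.7 FPKM in extravasated against 4376 FPKM in parental cells and a log2 ratio that was also 0.57. RPSA, the small subunit protein also known as the laminin receptor precursor, at 23:9070952 to 9077058, had 4898 FPKM against 3456 FPKM and a log2 ratio of 0.50. RPS15 and RPL32 thus had nearly the same ratio, although the level of RPL32 was well above that of RPS15 in both groups.

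RPS7, a small subunit protein at 17:2138599 to 2143224, completed the 5 highest ratios, with 3444 FPKM in extravasated against 2453 FPKM in parental cells (log2 ratio 0.49). RPS27, a small subunit protein with a zinc finger, at 7:43149521 to 43150625, had 8437 FPKM in extravasated against 6019.6 FPKM in parental cells, its log2 ratio being 0.49. RPS24, another small subunit protein, at 4:27886871 to 27893145, had 8413 FPKM and 6552 FPKM in the same order, and a log2 ratio of 0.36. RPS21, RPS27 and RPS24 were the 3 members with the highest values and held ranks 2, 3 and 4 of the 4412 listed genes.

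Among the members with the smallest ratios in the upward direction, RPL15, a large subunit protein at 23:19827256 to 19829099, had 1406 FPKM in extravasated against 1139 FPKM in parental cells, for a log2 ratio of 0.30. RPL26, a large subunit protein known to bind the mRNA of the tumor suppressor p53, at 5:33152153 to 33157474, had 3663 FPKM against 2952 FPKM and a log2 ratio of 0.31. FAU, whose product is a ubiquitin-like protein fused to a small subunit protein, at 18:52073116 to 52074289, had 3015 FPKM against 2387 FPKM and a log2 ratio of 0.34. The smallest absolute log2 ratio anywhere in the table was 0.28, a fold of 1.22, so these genes sat close to the smallest difference listed.

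The exceptions were RPS2 and RPL22L1. RPS2, a small subunit protein at the channel where mRNA enters, in a listed span of 128122 bases at 6:38956201 to 39084323, had 2995 FPKM in extravasated against 4428 FPKM in parental D17 cells, for a log2 ratio of -0.56. The parental value was 1.48-fold the extravasated one, about the size of the RPL32 and RPS15 differences but in the other direction. RPL22L1, at 34:35299105 to 35300924, had 157 FPKM in extravasated against 202 FPKM in parental cells (log2 ratio -0.37), and it was the lowest of the 31 members in level. RPL22 itself was not among the listed genes.

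The genes between these ends were alike. RPL11, the large subunit protein that with RPL5 and a small ribosomal RNA forms the particle that binds the p53 regulator MDM2, had 3913 FPKM in extravasated against 2993 FPKM in parental cells (log2 ratio 0.39). RPL13, at 5:63950693 to 63980363, had 447 FPKM against 326 FPKM and a log2 ratio of 0.45. The other 17 included RPL10A, RPL12, RPL17, RPL18, RPL21, RPL31, RPL35, RPS3, RPS3A, RPS6, RPS10, RPS15A, RPS16 and RPS26 and were all higher in extravasated cells, with log2 ratios from 0.34 (RPS26 and RPL10A) to 0.49 (RPL31). By subunit, all 12 listed large subunit genes were higher, with a median log2 ratio of 0.41, and 17 of 18 small subunit genes were higher, with a median of 0.42.

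The 29 higher members lay between 0.30 and 0.64 on the log2 scale, with an SD across genes of 0.08. That band held 905 rows, or 20.5% of the table. The SD of 0.08 leaves out the 2 lower members, and no listed log2 ratio was smaller than 0.28 in size. Among the rows that reached 1000 FPKM in either group, 28 were members, 27 of them higher and 1 lower, and 34 were other genes, 19 higher and 15 lower. The log2 ratios of these 28 members had an SD of 0.20, and those of the 34 other genes had an SD of 1.03. Summed over the 31 members, the FPKM was 1.33 times as high in extravasated as in parental cells. The members made up 32.9% of the FPKM of all listed rows in extravasated and 27.6% in parental cells, a share of the listed genes and not of all mRNA.

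**Figure D2:**
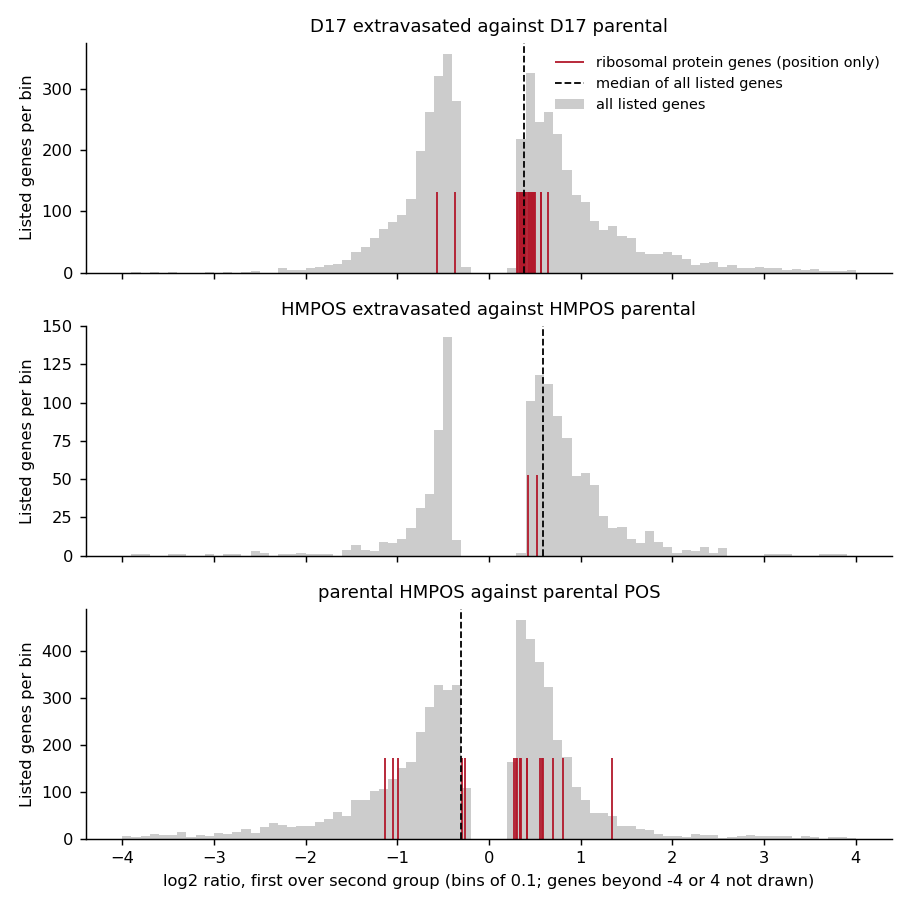
Number of listed genes per bin of the log2 ratio (first over second group, bins of 0.1), with the ribosomal protein genes as red ticks whose height carries no value and the median of all listed genes as a dashed line, for the 3 comparisons. The empty band around 0 is the range the tables do not list, the D17 members crowd between 0.30 and 0.64, and the members of the HMPOS and POS comparison spread from -1.13 to 1.34.

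The HMPOS comparison repeats the question in another line, with far fewer listed genes. Both listed members were higher in extravasated than in parental HMPOS cells, where 67.0% of the listed genes were higher and 33.0% lower. Both lay below the table's median log2 ratio of 0.58, so that relative to it 0 members were higher. Neither passed a fold of 2, which 25.3% of the listed genes did. The smallest absolute log2 ratio in this table was 0.38, a fold of 1.31.

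RPL13 had 395 FPKM in extravasated against 274 FPKM in parental HMPOS cells, for a log2 ratio of 0.53, against 0.45 for the same gene in D17 cells. RPL35A, a large subunit protein encoded at 33:28741243 to 28744278 and one of the genes mutated in Diamond-Blackfan anemia, an inherited failure of red cell production, had 379.5 FPKM in extravasated against 282 FPKM in parental cells, for a log2 ratio of 0.43. RPL13 was thus the 1 ribosomal protein gene listed as higher after extravasation in both lines. Genes higher in both lines were not counted over all listed genes. Whether the lines differed in any other member cannot be read from the tables, and no test of a difference between lines could be made.

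The comparison of HMPOS with POS sets a highly metastasizing derivative beside its source line, both as parental cells. Of the 20 listed members, 15 were higher and 5 lower in HMPOS than in POS cells, in a table where 47.7% of the genes were higher and 52.3% lower. The members' median log2 ratio of HMPOS over POS was 0.34 while that of all listed genes was -0.31, and relative to the latter 17 members lay above and 3 below. A fold of 2 was passed by 3 members, RPL7 upward and RPS26 and RPL31 downward, and by 27.6% of all listed genes, 8.49% upward and 19.1% downward. A fold of 1.5 was passed by 7 members and by 57.9% of the table. The SD of the members' log2 ratios was 0.64 across genes, against 1.31 across all listed genes. The listed members were thus less alike here than in the D17 table, where the SD of all listed genes was also smaller, at 1.05. The 2 tables list different members and share 11 of them.

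**Figure D3:**
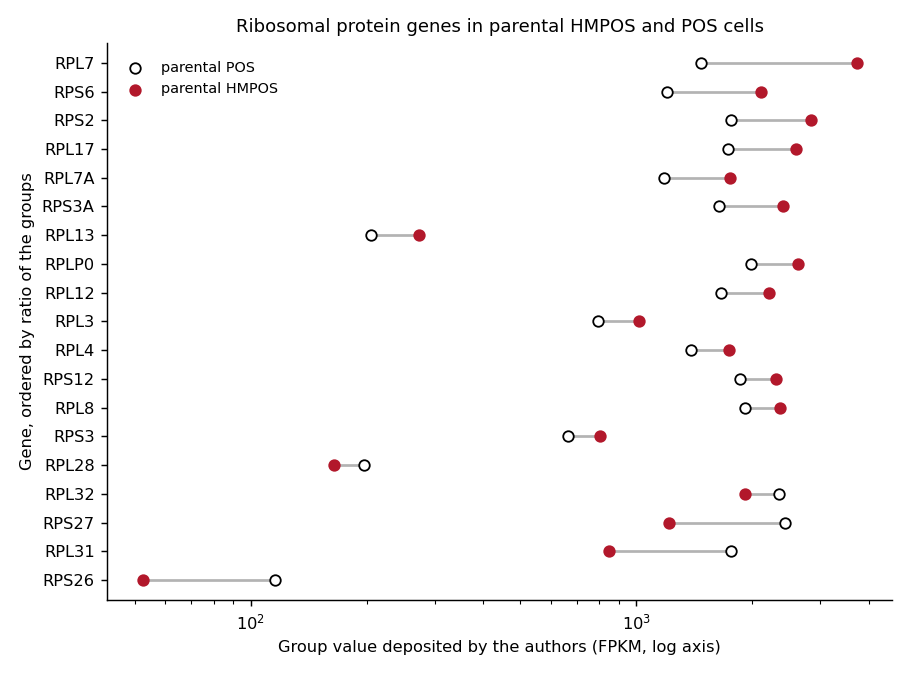
Pooled FPKM (log axis) of 19 of the 20 listed ribosomal protein genes in parental POS and parental HMPOS cells, 1 point per gene and group, ordered by the ratio of the groups. RPL7 stands apart at the upper end, and RPS26, RPL31 and RPS27 at the lower end.

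RPL7, a large subunit protein encoded at 29:21881047 to 21884401, had 3729 FPKM in HMPOS and 1471 FPKM in POS cells, a log2 ratio of 1.34 and a fold of 2.53. Its value was the highest of any listed gene in HMPOS cells. RPS6, the small subunit protein phosphorylated by the S6 kinases, followed with 2108 FPKM in HMPOS and 1203 FPKM in POS cells (log2 ratio 0.81). RPS2 had 2836 FPKM in HMPOS and 1754 FPKM in POS cells, a log2 ratio of 0.69 and the opposite sign to its D17 ratio.

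RPL17, a large subunit protein at the exit tunnel, had 2601 FPKM in HMPOS and 1733 FPKM in POS cells (log2 ratio 0.59). RPL7A, also of the large subunit, had 1750.0 FPKM against 1176 FPKM and a log2 ratio of 0.57. RPLP0, on which the stalk that recruits translation factors is built, had 2631 FPKM against 1978 FPKM and a log2 ratio of 0.41, and its stalk partners RPLP1 and RPLP2 were not listed. RPL7, RPS2 and RPLP0 were the 3 members with the highest values in this table.

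The lower members were led by RPS26, a small subunit protein at the channel where mRNA leaves, encoded at 10:362085 to 364789, with 52.5 FPKM in HMPOS and 115 FPKM in POS cells, a log2 ratio of -1.13. RPL31, a large subunit protein at 10:41832853 to 41842211, had 851 FPKM in HMPOS and 1762 FPKM in POS cells, a log2 ratio of -1.05. RPS27 had 1217 FPKM against 2427 FPKM and a log2 ratio of -0.996, just short of a fold of 2 (POS was 1.99-fold HMPOS). These 3 genes, of both subunits, stood apart from the other 17 members, none of which had a log2 ratio below -0.29.

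RPL32 had 1915 FPKM in HMPOS and 2349 FPKM in POS cells (log2 ratio -0.29), and RPL28, a large subunit protein at 1:102301011 to 102305193, had 164 FPKM against 197 FPKM (log2 ratio -0.26). RPL13 had 273.5 FPKM in HMPOS and 205 FPKM in POS cells, a log2 ratio of 0.42. The HMPOS parental libraries serve in both HMPOS tables, and the RPL13 value of that group was 273.8 FPKM in the other one, so its higher level against POS and its lower level against extravasated cells share a group. The other 8 members included RPL3 at the centre where peptide bonds form, RPL4, RPL8, RPL12, RPS3, RPS3A and RPS12 and were all higher in HMPOS, with log2 ratios from 0.27 for RPS3 to 0.55 for RPS3A. By subunit, 9 of 12 large and 6 of 8 small subunit genes were higher in HMPOS.

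Among rows that reached 1000 FPKM in either line, 15 were members, 12 higher and 3 lower in HMPOS, and 39 were other genes, 17 higher and 22 lower. The summed FPKM of the 20 members was 1.25 times as high in HMPOS as in POS cells. They made up 11.1% of the FPKM of the listed rows in HMPOS and 8.36% in POS cells.

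The 11 members listed both for D17 and for HMPOS against POS come from tables that share no library. RPL12, RPL13, RPL17, RPS3, RPS3A and RPS6 were higher in extravasated than in parental D17 cells and also higher in HMPOS than in POS cells. RPL31, RPL32, RPS26 and RPS27 were higher in extravasated D17 cells and lower in HMPOS than in POS cells, RPS2 was the reverse, and 0 members were lower in both. The 11 are the genes that passed the authors' test in both tables, and the difference between the comparisons was not tested. Joint directions were not counted over all genes listed in both, so these counts have no background beside them. Taken singly, 54.2% of all genes listed for D17 were higher in extravasated cells. For HMPOS against POS, 47.7% were higher in HMPOS.

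**Figure D4:**
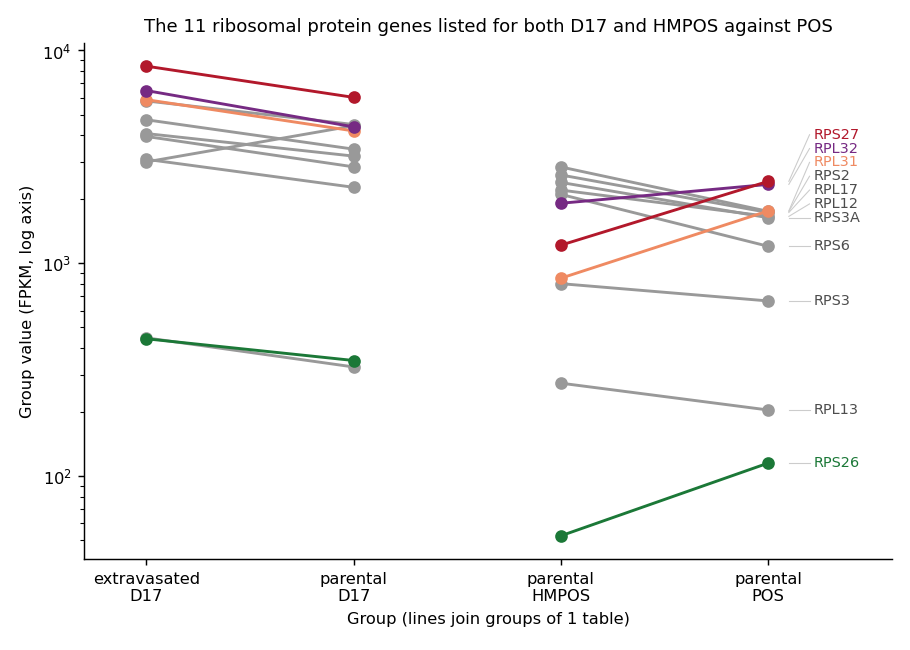
Pooled FPKM (log axis) of the 11 genes listed in both tables, in extravasated D17, parental D17, parental HMPOS and parental POS cells, with 1 point per gene and group and lines joining the groups of 1 table. The colored lines, RPS27, RPL31, RPL32 and RPS26, go down from extravasated to parental D17 cells and up from HMPOS to POS cells, and of the grey lines RPS2 alone goes up from extravasated to parental D17 cells.

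The order of levels among these 11 genes also differed between lines. RPS27 held the first place of the 11 in extravasated D17, parental D17 and POS cells but place 7 in HMPOS cells. RPL31 was in place 3 in extravasated D17, 5 in parental D17, 3 in POS and 8 in HMPOS cells. RPS2 moved the other way, from place 9 in extravasated and 3 in parental D17 cells to 4 in POS and 1 in HMPOS cells.

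Across tables that were normalised separately, parental D17 values were 1.19 to 6.66 times the parental HMPOS values for the 11 genes, with a median of 1.73. The highest of these level ratios belonged to RPS26 (6.66), RPS27 (4.95) and RPL31 (4.92), the same 3 genes that were lowest in HMPOS relative to POS, and the HMPOS parental value enters both ratios. RPL13 had the lowest, at 1.19.

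Other genes of translation were read from lists of fixed membership. Of 18 further genes with TOP mRNAs, 4 were listed for D17, at a median log2 ratio of 0.49. All 4 lay on the extravasated side, as did 54.2% of all listed genes. EIF4B, a cofactor of the helicase that opens mRNA for the ribosome, had 947 FPKM in extravasated against 671 FPKM in parental cells. TPT1, a very abundant TOP mRNA of the tumor protein TCTP, had 6177 FPKM against 4433 FPKM, and RPL36AL, a paralog of RPL36A whose symbol the rule does not take, had 1630.0 FPKM against 1156 FPKM. The log2 ratios of these 3 genes, 0.48 to 0.50, lay inside the band of the ribosomal protein genes.

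Genes that build ribosomes and run translation without being part of the ribosome lay mostly below 0 in D17. All 16 listed translation factors, of 34 on the list, were lower in extravasated cells, as were 45.8% of all listed genes, at a median log2 ratio of -0.53. That list leaves out factors with TOP mRNAs, which were placed on the TOP list. Of those factors EIF4B was listed for D17 and was higher in extravasated cells (log2 ratio 0.50), so the shared direction depends in part on how the lists were drawn up. Of 48 ribosome assembly genes, 31 were listed, 30 lower and 1 higher, with a median of -0.68, and 6 were lower past a fold of 2, as were 8.50% of all listed genes. EIF5, which triggers GTP hydrolysis at the start codon, had 180.0 FPKM in extravasated against 444 FPKM in parental cells (log2 ratio -1.30), and NOP58, a core protein of the particles that guide methylation of ribosomal RNA, had 59.8 FPKM against 137 FPKM (log2 ratio -1.20). The 1 assembly gene that was higher was POLR1D, a subunit of the polymerases that make ribosomal RNA, with 265 FPKM against 173 FPKM.

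Of 14 regulators, 5 were listed for D17. MTOR had 8.97 FPKM in extravasated against 13.8 FPKM in parental cells (log2 ratio -0.62), and EIF4EBP1, the repressor of cap-dependent initiation that mTOR inactivates, had 49.9 FPKM against 29.6 FPKM (log2 ratio 0.75). LARP1, which binds TOP tracts, and MYC, a transcription factor that drives ribosome production, had log2 ratios of -0.55 and -0.39, and TSC1, an inhibitor of mTOR, had 0.62.

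In HMPOS, these lists held few genes. EIF1AX, a factor in start codon scanning, had 56.9 FPKM in extravasated against 75.6 FPKM in parental cells (log2 ratio -0.41). NHP2, of the particles that guide pseudouridine formation in ribosomal RNA, had 93.3 FPKM against 69.6 FPKM (log2 ratio 0.42), and UTP20, an assembly factor of the small subunit, had 11.4 FPKM against 16.8 FPKM (log2 ratio -0.55). No further TOP gene and no regulator on the lists was among the rows.

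Between HMPOS and POS, most listed TOP genes, translation factors and assembly genes were higher in HMPOS, where 47.7% of all listed genes were. Of the 6 listed regulators 4 were lower, as were 52.3% of all listed genes. Of the further TOP genes 13 were listed, 11 higher and 2 lower in HMPOS, with a median log2 ratio of 0.40. Among them EEF1B2, which recharges the factor that delivers tRNAs, had 236 FPKM in HMPOS and 147 FPKM in POS cells, and RACK1, a scaffold on the small subunit, had 3191 FPKM against 2078 FPKM. RPL36AL was among the lower genes, with 543 FPKM against 849 FPKM.

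Of the translation factors 21 were listed, 20 higher and 1 lower, with a median of 0.55, and of the assembly genes 30 were listed, 28 higher and 2 lower, with a median of 0.52. EIF2B5, the catalytic subunit of the exchange factor for EIF2, had 20.4 FPKM in HMPOS and 8.40 FPKM in POS cells (log2 ratio 1.28), and RRS1, an assembly factor of the large subunit, had 36.8 FPKM against 13.4 FPKM (log2 ratio 1.45). NOP10, of the pseudouridine guide particles, had 123 FPKM against 389 FPKM (log2 ratio -1.66), and EIF3D had 89.2 FPKM against 109.6 FPKM. Of the regulators 6 were listed, 2 higher and 4 lower, with EIF4EBP2, a relative of EIF4EBP1, at 17.6 FPKM in HMPOS against 48.8 FPKM in POS cells (log2 ratio -1.47) and DEPTOR, an inhibitor of mTOR, at 1.82 FPKM and 1.07 FPKM (log2 ratio 0.76).

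The proteins of the mitochondrial ribosome, a list added after its values were seen, lay with the assembly genes in both tables. In D17, 15 of 16 listed genes were lower in extravasated cells, as were 45.8% of all listed genes. The median log2 ratio of the 16 was -0.48. Between HMPOS and POS 22 of 25 were higher in HMPOS, as were 47.7% of all listed genes. The median of the 25 was 0.55.

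**Figure D5:**
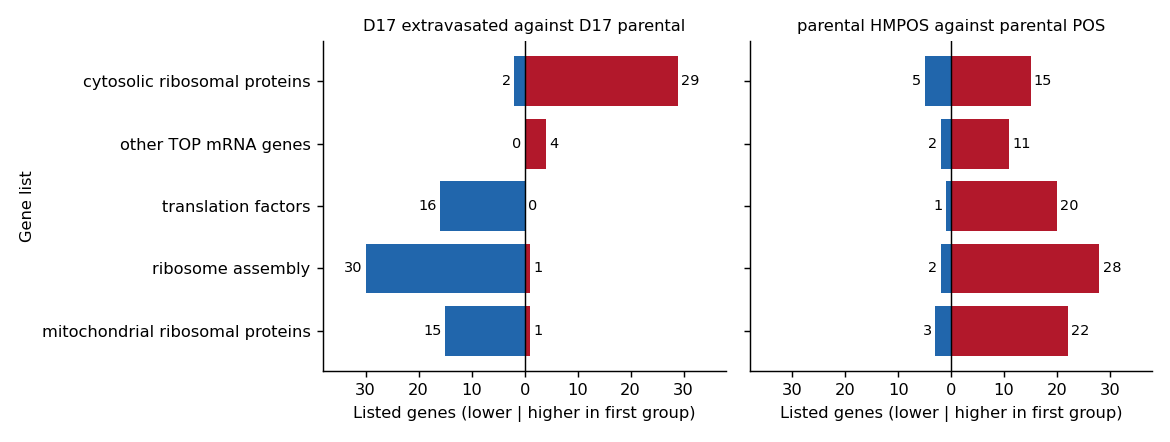
Number of listed genes lower (left of 0) or higher (right of 0) in the first group for cytosolic ribosomal proteins, other TOP mRNA genes, translation factors, ribosome assembly genes and mitochondrial ribosomal proteins. In D17 the ribosomal protein and TOP genes point mostly right and the other lists mostly left, and between HMPOS and POS all 5 lists point mostly right. Translation factors with TOP mRNAs, such as EIF4B, are counted with the TOP genes.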

How the data were processed

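Poly(A) RNA of 15 cell line libraries was sequenced. The submitters' processing notes name Trimmomatic 0.38, TopHat2, Cufflinks, Cuffdiff and the build CanFam3.1; the article describes another alignment and test, and the labels and file headers were followed. The authors deposited, for each of 3 comparisons, 1 pooled FPKM value per gene and group, together with their own log2 ratio, test statistic, p-value and q-value, which were not used. The number of single-sample columns left unused was 0. Groups came from the sample titles.

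From the FPKM values, log2 ratios were recomputed with no pseudocount (Python 3.11.15, pandas 2.3.3, numpy 2.4.6), a step tested on simulated data. Alternatives were a fold of 1.5, a minimum of 10 FPKM, core subunits only, 1 row per symbol, a pseudocount of 1 and centring. Named genes were members past a fold of 2, the 5 highest and 5 lowest ratios and the 3 highest levels per table, paralogs, stalk and RPL11 particle proteins, members in both extravasation tables and, per further list, the largest ratio each way; other named list genes were chosen with their values seen. The members and lists were chosen with earlier results of these data known. Spans are as deposited; whether they count from 0 or 1 is not stated. No sequence was used here. Some genes are counted but not reported here by name.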

Additional observations from a re-analysis of the deposited data

How the results depend on the processing

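Of 42 alternative values of the counts, medians and fold counts, 30 stayed within the limits set for them, 11 moved and 1 reversed. Centring on the table median made the D17 members 18 higher and 13 lower with a median of 0.021, the HMPOS members 0 higher and 2 lower with a median of -0.11 in place of 0.48, and the HMPOS against POS members 3 lower with a median of 0.65. Because the tables leave out small ratios, that median depends on which genes were listed. With core subunits only, 1 D17 member was lower and the median was 0.42. At a fold of 1.5, 1 D17 member and 7 members between HMPOS and POS passed, as did 61.8% and 57.9% of all listed genes. A pseudocount of 1 moved none of the values it was tried on. A minimum of 10 FPKM and 1 row per symbol could move none. The lowest member value was 52.5 FPKM, and each member had 1 row per table. Core subunits only could move no value in either table with HMPOS, where every member was a core subunit. Many of the 30 unchanged values were thus fixed in advance. No paired analysis was possible because each group has a single pooled value without replicate numbers; for the same reason no library could be left out, and the depth behind each value is unknown.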

Other observations

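Diamond-Blackfan anemia is caused by loss of single ribosomal protein genes, and 8 genes of a list for it were among the D17 rows. All 8 lay on the extravasated side, as did 54.2% of all listed genes. Their median log2 ratio was 0.37 with an SD across genes of 0.06, and 3 of the 8 lay above the table median. In HMPOS the list gave RPL35A, which was higher in extravasated cells, and between HMPOS and POS it gave RPS26, which was lower in HMPOS.

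In the D17 table and in that of HMPOS against POS, members with higher levels tended weakly to higher log2 ratios, and the HMPOS extravasation table held too few members for a correlation. Across the 31 D17 genes Pearson's r was 0.37 and Spearman's rho 0.37, and across the 20 genes of HMPOS against POS r was 0.45 and rho 0.47. The genes share libraries and are not independent replicates, and the level enters the ratio, so these values are a description.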
